A study of Mus musculus with 6 samples.

Results

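The genes described here are 10 transcripts of negative feedback on the MAP kinase pathways, the dual-specificity phosphatase genes Dusp1, Dusp2, Dusp4, Dusp5, Dusp6, Dusp7, Dusp10 and Dusp16 and the Sprouty genes Spry1 and Spry2. They were chosen by symbol, and each symbol matched 1 of the 34745 genes of the expression table. RNA was sequenced in 6 libraries from splenic naive CD4 T cells of female C57BL/6 mice aged 6 weeks. All cells were activated through CD3 and CD28 and held for 4 days under conditions that drive T helper 17 (Th17) development. The medium held IL-6, IL-23, TGF-beta, IL-2 and antibodies that neutralise IFN-gamma and IL-4. At 6 h the cells of one group (3 libraries) received fine airborne particles (PM2.5) at 100 µg/ml. Those of the other group (3 libraries) received PBS. The design asks how the particles alter transcript levels in these cells. Nothing in the labels says whether the 3 libraries of a group came from separate mice or separate cultures. The p-values therefore measure the spread between these libraries, which may be technical. The labels give no composition for the particles.

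Receptor signals in T cells run through cascades of kinases that end in the MAP kinases ERK, JNK and p38. Dual-specificity phosphatases remove the activating phosphates from the threonine and tyrosine of a MAP kinase, and many of their genes are themselves switched on by the cascade, which makes them a delayed brake. Dusp1, Dusp2, Dusp4 and Dusp5 encode inducible enzymes of the nucleus, Dusp6 and Dusp7 encode enzymes of the cytoplasm that act on ERK, and Dusp10 and Dusp16 encode enzymes that act mainly on JNK and p38. Sprouty proteins act further upstream and dampen the passage of receptor signals through Ras and Raf.

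The PM2.5 libraries held more Spry1, Dusp5, Dusp16, Dusp1 and Dusp4 transcript than the PBS libraries, and less Dusp6 and Dusp7. Spry1 changed most, 6.73-fold higher, followed by Dusp5 (2.57-fold), Dusp16 (1.78-fold), Dusp1 (1.75-fold) and Dusp4 (1.58-fold). Dusp6 was 1.30-fold and Dusp7 1.13-fold lower. Dusp2, Dusp10 and Spry2 did not pass the test. All 10 genes were among the 12967 that passed the filter on low counts. Of the 10, 5 were called higher, against 35.2% of all genes tested, and 2 were called lower, against 35.3%. In either direction 7 were called, against 70.6% of all genes, so the share of called genes was near the background and only the size and direction of each change are described. The groups did not overlap for those 7 genes, and for 74.9% of all genes. At least 2-fold higher were 2 of the 10, Spry1 and Dusp5, against 6.51% of all genes. The median log2 fold change of the 10 was 0.35, beside -0.01 over all genes.

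**Figure D1:**
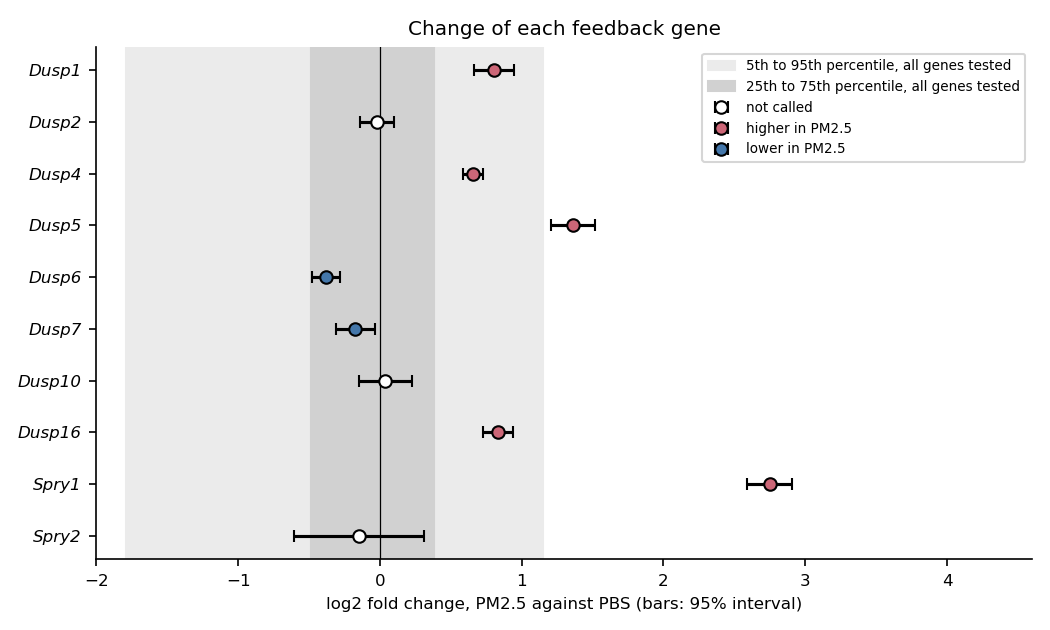
Log2 fold change of each gene, PM2.5 against PBS (x axis), with its 95% interval (bars), over the 25th to 75th and 5th to 95th percentiles of all 12967 genes tested (grey). Spry1 at 2.75 and Dusp5 at 1.36 lie beyond the 95th percentile of all genes (1.15), and the 3 open points, Dusp2, Dusp10 and Spry2, have intervals that span 0.

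The sequences before the transcription starts are shown for the 3 genes that rose and held a searched motif, Spry1, Dusp5 and Dusp1, and for Dusp6, which fell, because the genes are known to answer to transcription factors downstream of receptor signals. They are the 250 bases before the start in RefSeq (GRCm38.p6, the mm10 build), 5′ to 3′ on the strand of the gene, and capitals mark every match to a searched motif. The RefSeq promoter table held 9 of the 10 genes, without Dusp4. RefSeq starts can differ from the gene bounds of the expression table, which are given below. By those bounds the windows of Dusp5 and Dusp1 lie partly inside the gene. That of Dusp10, which is not shown, lies wholly inside.
Spry1, chr3:37639697-37639946, plus strand: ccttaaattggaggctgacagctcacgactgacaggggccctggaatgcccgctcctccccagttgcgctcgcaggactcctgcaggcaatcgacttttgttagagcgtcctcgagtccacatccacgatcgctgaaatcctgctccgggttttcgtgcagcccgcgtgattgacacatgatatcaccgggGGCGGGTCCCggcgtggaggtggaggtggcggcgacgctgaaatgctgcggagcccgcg
Dusp5, chr19:53528895-53529144, plus strand: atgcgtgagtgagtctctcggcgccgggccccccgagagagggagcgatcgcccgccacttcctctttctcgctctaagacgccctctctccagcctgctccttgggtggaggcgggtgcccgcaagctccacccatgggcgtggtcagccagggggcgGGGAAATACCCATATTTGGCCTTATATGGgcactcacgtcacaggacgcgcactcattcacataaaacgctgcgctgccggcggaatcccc
Dusp1, chr17:26508473-26508722, minus strand: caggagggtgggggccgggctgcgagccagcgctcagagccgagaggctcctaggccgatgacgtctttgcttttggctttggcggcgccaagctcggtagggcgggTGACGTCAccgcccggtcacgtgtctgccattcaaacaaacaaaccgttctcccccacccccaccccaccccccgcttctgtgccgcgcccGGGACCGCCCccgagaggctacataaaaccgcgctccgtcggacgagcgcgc
Dusp6, chr10:99262981-99263230, plus strand: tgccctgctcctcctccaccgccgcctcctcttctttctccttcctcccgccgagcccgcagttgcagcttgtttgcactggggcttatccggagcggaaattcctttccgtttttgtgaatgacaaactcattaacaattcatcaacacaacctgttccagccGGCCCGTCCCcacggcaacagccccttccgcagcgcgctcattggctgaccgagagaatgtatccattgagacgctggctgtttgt
The capitals of Dusp5 run together because 3 matches adjoin. An NF-kB type match, GGGAAATACC, lies at positions -91 to -82 from the start, where -1 is the last base before it. Its last base is also the first base of a CArG box, CCATATTTGG, at -82 to -73, and a further CArG box, CCTTATATGG, lies at -72 to -63. The CArG box is a type of site that serum response factor, a partner of ERK-activated factors, can bind. It occurred in 1.47% of the 32851 promoters and in no other of the 9. In Dusp1 the capitals at -143 to -136 spell TGACGTCA, the cyclic AMP response element, which occurred in 1.55% of all promoters and in no other of the 9.

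The NF-kB type pattern, GGGA and CC with any 4 bases between, is loose and occurred on either strand of 17.6% of all promoters. They were found in 3 of the 4 genes that rose and have a promoter entry (not in Dusp16), in both genes that fell, Dusp6 and Dusp7, and in 1 of the 3 that were not called, Spry2. With the strand of the gene alone they were found in 3 of the 9 genes. The AP-1 letters TGANTCA (6.75% of all promoters), the ATF and C/EBP composite TGATGNAA (3.45%), the EGR letters GCGTGGGCG (0.536%) and the ETS letters CCGGAAG (6.91%) were in none of the 9 windows. The NFAT letters GGAAAA (20.4%) were found in Spry2 alone of the 9. All searches covered both strands. The 9 windows held 56.4% to 77.2% G and C bases, against a median of 52.4% over all promoters. The shares over all promoters are thus not from windows of like composition, and the part of composition in the matches was not tested. A match is a run of letters and not a measured binding site, and binding outside these windows was not analysed here.

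Libraries held 19511561 to 22353131 counts in the PBS group and 25397965 to 27215853 in the PM2.5 group, so each PM2.5 library was deeper than each PBS library. Levels below are TMM-scaled CPM, counts set to a common library total, for comparisons between libraries, and FPKM for comparisons between genes. Of 12 CD4 T cell and Th17 marker genes all were detected. Their summed levels were 5496 to 5563 CPM in PBS and 4169 to 4677 CPM in PM2.5 (scaled by library totals), with Il17f as the largest part. Of the 12, 10 were called lower, against 35.3% of all genes tested, and 1, Cd28, was called higher, against 35.2%. B cell markers summed to 70.9 to 76.9 CPM in PBS and 19.5 to 21.4 CPM in PM2.5. Nearly all of this was the immunoglobulin gene Ighm, while Ms4a1 had 0 counts in every library. The 10 myeloid markers summed to at most 2.26 CPM, with Lyz2, S100a8 and S100a9 at 0 counts. Summed markers of NK, CD8 and gamma-delta T cells went from 75.3 to 84.8 CPM in PBS to 30.9 to 33.4 CPM in PM2.5, with Ncr1 at 0. Most of this sum was Klrd1 and Trdc. Of the 5 genes of this list that were tested, 3 were called lower and 2 higher, and Cd8b1 and Eomes read higher in PM2.5. Erythroid and stromal markers went from 82.6 to 88.0 CPM to 47.0 to 49.9 CPM, nearly all of it Pecam1, with Hba-a1 and Hbb-bs at 0. The part of these cells in the results below was not tested, and in such bulk RNA a change in the number of cells that express a gene and a change of its RNA per cell cannot be told apart.

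Among the nuclear phosphatases, Dusp4 was by far the most abundant transcript. Dusp4 (ENSMUSG00000031530, mm10 chromosome 8, 34807297 to 34819894) encodes a phosphatase of ERK and JNK. Its levels were 505, 471 and 479 CPM in the PBS libraries and 757, 772 and 769 CPM in the PM2.5 libraries. Every PM2.5 library lay above every PBS library, and the gap was many times the spread within either group. The mean rose from 485 ± 17.96 to 766 ± 8.04 CPM (SD, n = 3). On the log2 scale this was a rise of 0.66 (SE 0.03), and the quasi-likelihood test of edgeR gave an adjusted p of 2.31e-08.

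Dusp5 (ENSMUSG00000034765, chromosome 19, 53529109 to 53542431), whose product acts on ERK alone, had the largest rise of the phosphatases. It stood at 16.2, 14.0 and 15.5 CPM in PBS and at 37.5, 39.3 and 41.0 CPM in PM2.5. The lowest PM2.5 library was above all PBS libraries. The rise was 1.36 on the log2 scale (SE 0.07, adjusted p = 3.89e-08), and its 95% interval ran from 2.31-fold to 2.86-fold. The promoter with the CArG pair shown above belongs to this gene. An antisense gene that overlaps exon sequence of Dusp5 in the annotation is not in the table of counts. Since the strand setting of the counting is not given in the sources used here, reads of that antisense gene could be included.

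Dusp1 (ENSMUSG00000024190, chromosome 17, 26505590 to 26508519) encodes the prototype of the family, an immediate early gene product that acts on p38 and JNK as well as ERK. It had 14.5, 15.1 and 15.4 CPM in PBS and 27.2, 25.2 and 26.2 CPM in PM2.5. The groups were well apart, and within each group the libraries differed little. Its log2 fold change was 0.81 (SE 0.06, adjusted p = 1.06e-06). Dusp2 (ENSMUSG00000027368, chromosome 2, 127336159 to 127338376), a phosphatase found mainly in blood cells, did not pass the test. Its levels were 44.3, 39.8 and 41.7 CPM in PBS and 41.6, 41.8 and 40.7 CPM in PM2.5, and the groups overlapped. The log2 fold change was -0.02 (SE 0.05, adjusted p = 0.758), with an interval from 0.909-fold to 1.07-fold.

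**Figure D2:**
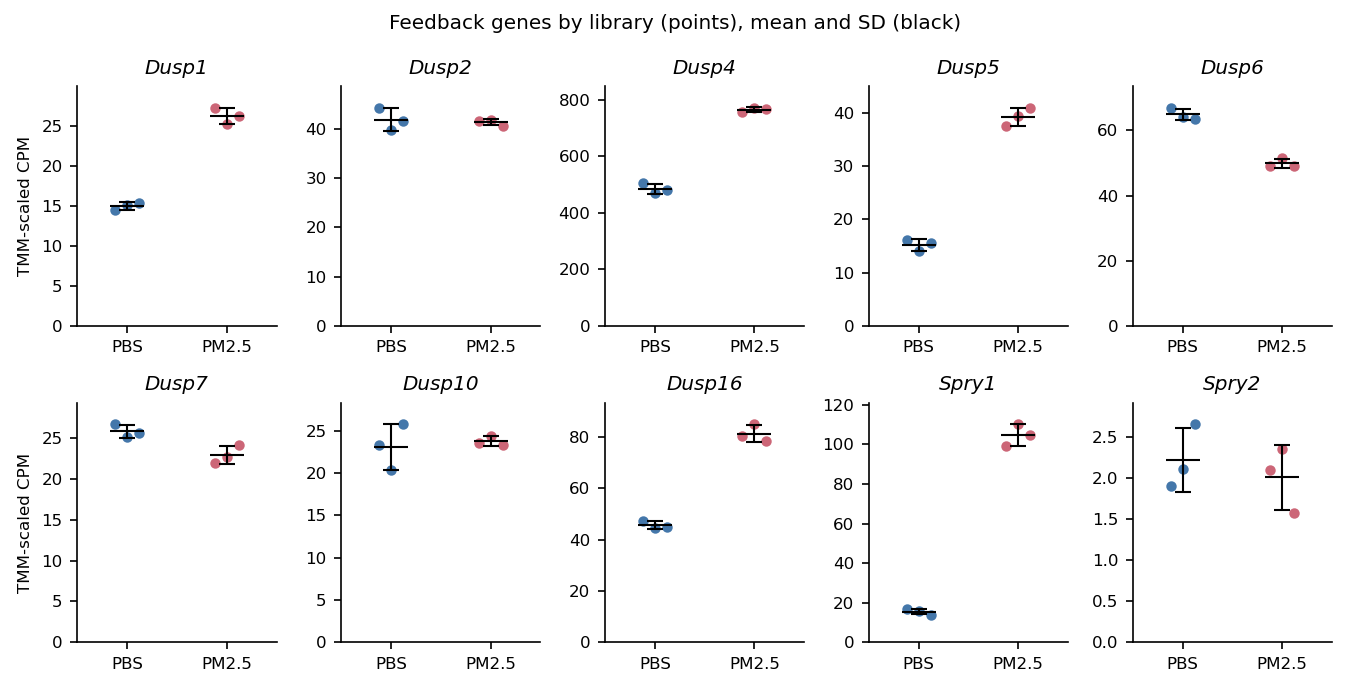
TMM-scaled CPM (y axis, from 0) of each gene in the 3 PBS and 3 PM2.5 libraries (points), with the mean and SD in black. The groups are apart for Dusp1, Dusp4, Dusp5, Dusp16 and Spry1, which are higher with PM2.5, and for Dusp6 and Dusp7, which are lower, while those of Dusp2, Dusp10 and Spry2 overlap.

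The phosphatases of the cytoplasm that act on ERK went the other way. Dusp6 (ENSMUSG00000019960, chromosome 10, 99263231 to 99267488) is widely used as a readout of ERK activity, since its transcription depends on the cascade that its product restrains. It had 66.9, 64.2 and 63.4 CPM in PBS and 49.2, 51.4 and 48.9 CPM in PM2.5. All PM2.5 libraries were lower than all PBS libraries. The mean fell from 64.9 ± 1.82 to 49.8 ± 1.39 CPM, or by 0.38 on the log2 scale (SE 0.04, adjusted p = 2.42e-05).

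Dusp7 (ENSMUSG00000053716, chromosome 9, 106368632 to 106375724), a close relative of Dusp6, moved much less. Its libraries read 26.7, 25.1 and 25.6 CPM in PBS and 21.9, 22.7 and 24.1 CPM in PM2.5. The groups were apart, but the gap between the nearest libraries was smaller than the range within each group. It fell by 0.17 on the log2 scale (SE 0.06, adjusted p = 0.0295). This call did not hold with DESeq2 (adjusted p = 0.105), with the replicate numbers as a block (0.0523), or without PBS replicate 1, PM2.5 replicate 1 or PM2.5 replicate 2 (0.0886, 0.108 and 0.0756). Over all alternatives its adjusted p ran from 0.00622 to 0.108.

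The phosphatases of JNK and p38 were split. Dusp16 (ENSMUSG00000030203, chromosome 6, 134715468 to 134792625), which acts chiefly on JNK, had 47.3, 44.5 and 44.9 CPM in PBS and 80.1, 84.8 and 78.3 CPM in PM2.5. The groups did not come near each other. Its log2 fold change was 0.83 (SE 0.05, adjusted p = 8.47e-08). An antisense gene annotated within it had 0 counts in every library.

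Dusp10 (ENSMUSG00000039384, chromosome 1, 184013302 to 184075636), which restrains JNK and p38 in T cells, stood at 23.2, 20.3 and 25.7 CPM in PBS and at 23.5, 24.4 and 23.3 CPM in PM2.5. The PM2.5 libraries fell within the range of the PBS libraries. The log2 fold change was 0.04 (SE 0.08, adjusted p = 0.699), with an interval from 0.902-fold to 1.17-fold, and its sign depended on the scaling. An opposite-strand gene within its locus, 1700056E22Rik, had 8 to 24 counts per library, against 403 to 625 for Dusp10.

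Of the Sprouty genes, Spry1 had the largest change of the 10 genes. Spry1 (ENSMUSG00000037211, chromosome 3, 37639947 to 37644598) encodes an inhibitor of antigen receptor and growth factor signals that is expressed in activated T cells. It had 16.8, 15.9 and 14.0 CPM in PBS and 99.3, 110 and 105 CPM in PM2.5. The lowest PM2.5 library was several times the highest PBS library. The mean rose from 15.6 ± 1.46 to 105 ± 5.40 CPM. The rise was 2.75 on the log2 scale (SE 0.07, adjusted p = 2.78e-10), with an interval from 6.03-fold to 7.51-fold. This was higher than the change of 99.2% of the genes tested. An unclassified gene on the opposite strand overlaps exon sequence of Spry1. That gene had only 2 to 16 counts per library, against 315 to 381 for Spry1 in PBS and 2598 to 2811 in PM2.5.

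Spry2 (ENSMUSG00000022114, chromosome 14, 105891949 to 105896819), the second Sprouty gene and a broad inhibitor of growth factor signals, was scarce. It had 43, 42 and 61 counts in PBS and 56, 60 and 39 counts in PM2.5, or 1.90, 2.12 and 2.66 against 2.10, 2.35 and 1.57 CPM. The groups overlapped, and PM2.5 replicate 3 was the lowest of the 6 libraries. The log2 fold change was -0.15 (SE 0.20, adjusted p = 0.538), with an interval from 0.658-fold to 1.24-fold. Its interval was the widest of the 10 genes.

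Per length, the order of the genes changed between the groups. In PBS, Dusp4 led with 181 ± 6.86 FPKM (SD, n = 3), above 98.8% of the genes tested, followed by Dusp6 with 23.7 ± 0.64 FPKM and Dusp2 with 18.05 ± 1.01 FPKM. Then came Dusp10 (6.72 FPKM), Dusp5 (6.31), Dusp7 (5.11), Spry1 (4.78), Dusp16 (3.59), Dusp1 (2.98) and Spry2 (1.09). The libraries of Dusp10 and Dusp5 overlapped, as did those of Dusp7 and Spry1, so these neighbours cannot be ordered. In PM2.5, Dusp4 again led with 273 ± 2.83 FPKM, and Spry1 was in the second place with 30.8 ± 1.58 FPKM. Dusp6 (17.4 ± 0.48 FPKM) and Dusp2 (17.0 ± 0.24 FPKM) overlapped, and Dusp5 (15.5 ± 0.67 FPKM) lay just under them. Dusp10 (6.60 FPKM), Dusp16 (6.11), Dusp1 (4.98), Dusp7 (4.34) and Spry2 (0.942) closed the order without overlap between neighbours.

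**Figure D3:**
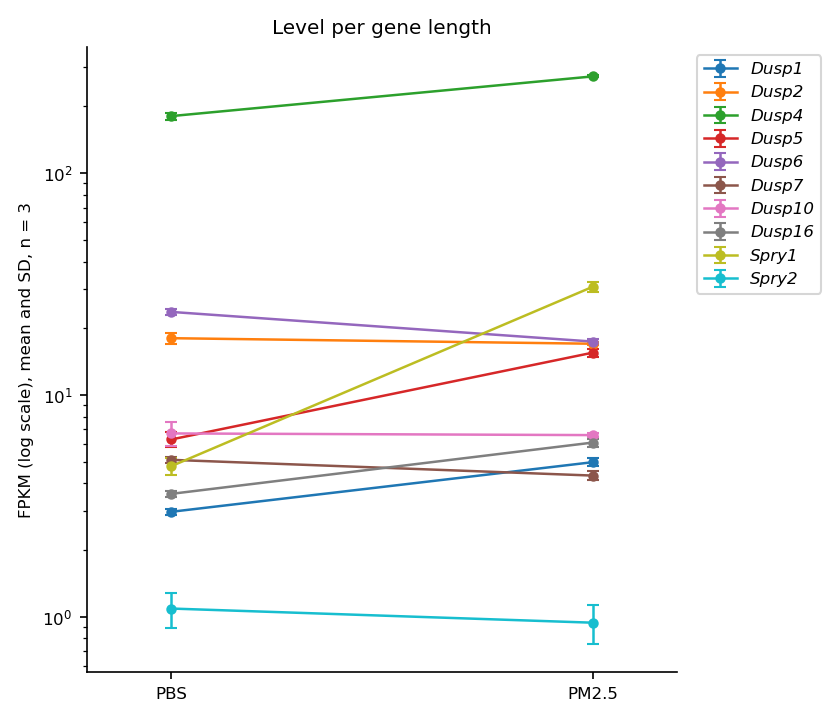
Mean FPKM with SD (log y axis, n = 3) of each gene in PBS and PM2.5, joined by a line per gene. Spry1 crosses from 4.78 to 30.8 FPKM into the second place, Dusp4 stays on top at 181 and 273 FPKM, and Dusp5 comes close to Dusp6.

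The 8 phosphatase transcripts together rose from 247 ± 9.47 to 345 ± 3.73 summed FPKM, and Dusp4 made up most of it in each group. The share of Dusp4 in this sum was 73.2%, 73.4% and 72.8% in the PBS libraries and 79.2%, 79.0% and 79.2% in the PM2.5 libraries. The share of Dusp6 went from 9.59 ± 0.20% to 5.05 ± 0.11% and that of Dusp5 from 2.55 ± 0.11% to 4.50 ± 0.16%. The shares describe transcripts and say nothing of the amounts of protein. The summed FPKM of Spry1 and Spry2 went from 5.87 ± 0.24 to 31.7 ± 1.65.

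Ratios between genes of one library do not depend on how libraries are scaled. Of 5 such ratios, chosen after the values were seen, that of Dusp5 to Dusp6, a nuclear against a cytoplasmic phosphatase of ERK, was 0.274, 0.247 and 0.277 in PBS and 0.864, 0.865 and 0.946 in PM2.5. Dusp6 thus outnumbered Dusp5 several times in PBS and only slightly in PM2.5. The ratio of Dusp4 to Dusp6 went from 7.63 ± 0.13 to 15.7 ± 0.36, that of Dusp16 to Dusp10 from 0.539 ± 0.062 to 0.925 ± 0.016, that of Dusp1 to Dusp2 from 0.165 ± 0.013 to 0.292 ± 0.013, and that of Spry1 to Spry2 from 4.52 ± 1.14 to 33.6 ± 7.09. The groups did not overlap for any of the 5. The exact two-sided permutation test gave p = 0.1 for each, also after Benjamini-Hochberg adjustment over the 5, which is the smallest value that 3 libraries against 3 allow.

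The relatives of these genes also moved both ways, as did all genes tested (35.2% higher, 35.3% lower, median log2 fold change -0.01). Dusp8, a further phosphatase of JNK and p38, rose from a low level, with 28, 15 and 11 counts in PBS and 192, 190 and 189 in PM2.5, a rise of 3.16 on the log2 scale (SE 0.23, adjusted p = 5.85e-07). Dusp9, a relative of Dusp6, fell by 1.35 on the log2 scale, from 1.54 ± 0.33 to 0.600 ± 0.143 CPM (adjusted p = 0.00104). Spry4, a Sprouty gene used as a readout of ERK, had 9, 10 and 7 counts in PBS and 74, 55 and 40 in PM2.5. The rise was 2.44 on the log2 scale (SE 0.30, adjusted p = 3.73e-05), from 0.402 ± 0.0996 CPM in PBS to 2.18 ± 0.59 CPM in PM2.5. It passed the filter on low counts only through the PM2.5 libraries, so this adjusted p is not taken as support. It stayed far below Spry1 per length, at 0.465 FPKM in PM2.5. Of the genes of Sprouty-related inhibitors of Raf, Spred1 rose by 0.72 and Spred2 fell by 0.29 on the log2 scale. Spred3 stood at 0.23 (adjusted p = 0.0319), a call that was lost in 10 of 14 alternatives, among them DESeq2 (0.159), library totals (0.106), the replicate block (0.0524) and the fits without PBS replicate 1 (0.126), PBS replicate 2 (0.0550), PM2.5 replicate 1 (0.0776) or PM2.5 replicate 2 (0.0803), over a range of 0.0295 to 0.159. Spry3 was not tested, with 4 counts in 1 library and 0 in the others.

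The 11 atypical dual-specificity phosphatases are small enzymes without the MAP kinase docking domain. Of the 10 that were tested, 3 rose, 1 fell and 6 did not pass (median log2 fold change 0.22). The share called was 40.0%, against 70.6% of all genes (35.2% higher, 35.3% lower). Dusp14, whose product restrains T cell receptor signalling, rose 5.82-fold, from 23.1 ± 2.03 to 135 ± 6.78 CPM (2.54 on the log2 scale, SE 0.07, adjusted p = 6.14e-10). Its 3 PM2.5 libraries, at 138, 127 and 139 CPM, lay far above the PBS libraries, at 21.2, 22.9 and 25.2 CPM. The RNA phosphatase gene Dusp11 (0.37) and Dusp12 (0.85) rose and Dusp19 fell by 0.75 on the log2 scale. Of 8 other phosphatase genes tested of 9 listed, 5 rose and 2 fell, all by less than 2-fold (median log2 fold change 0.21). The share called was 87.5%, against 70.6% of all genes. Among these 8 genes the PP2C enzymes Ppm1a (0.56), Ppm1b (0.41) and Ppm1d (0.49), and Ppp2cb (0.27), a catalytic subunit of PP2A, rose.

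Among the kinases upstream, 6 of the 14 genes of the Raf-MEK-ERK cascade rose and 5 fell (median log2 fold change 0.14), against 35.2% and 35.3% of all genes. With library totals and with limma on FPKM the counts were 4 and 5. Mapk3, the gene of ERK1, fell 1.49-fold, from 78.2 ± 2.62 to 52.3 ± 1.25 CPM (-0.58 on the log2 scale, SE 0.04, adjusted p = 7.15e-07). The ERK-activated kinase genes Mknk2 (-1.02) and Rps6ka1 (-0.30) and the Raf gene Araf (-0.60) fell. Of the 18 Ras genes and regulators, 6 rose and 6 fell (median log2 fold change 0.05). The Ras activator Rasgrp3 (-2.63) and the Ras-inactivating proteins Rasal3 (-1.30) and Rasa1 (-0.91) fell, while Nf1, a further Ras-inactivating protein, rose (1.002).

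In the JNK and p38 cascade 7 of the 23 genes tested rose and 10 fell (median log2 fold change -0.07), against 35.2% and 35.3% of all genes. The share called in either direction, 73.9%, was near the 70.6% of all genes. Gadd45b, a stress-induced activator of the p38 cascade, rose 2.98-fold, from 29.4 ± 2.05 to 87.7 ± 2.98 CPM (1.57 on the log2 scale, SE 0.06, adjusted p = 2.74e-09), and the JNK gene Mapk8 rose by 0.40. The upstream kinases Map3k5 (-1.23) and Map3k4 (-0.99) and the p38 substrate kinase Mapkapk3 (-0.85) fell. The p38 gene Mapk14 could not be judged. Its levels were 120, 120 and 63.7 CPM in PBS and 101, 112 and 217 CPM in PM2.5, so 1 library of each group stood apart from the other two (adjusted p = 0.371).

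**Figure D4:**
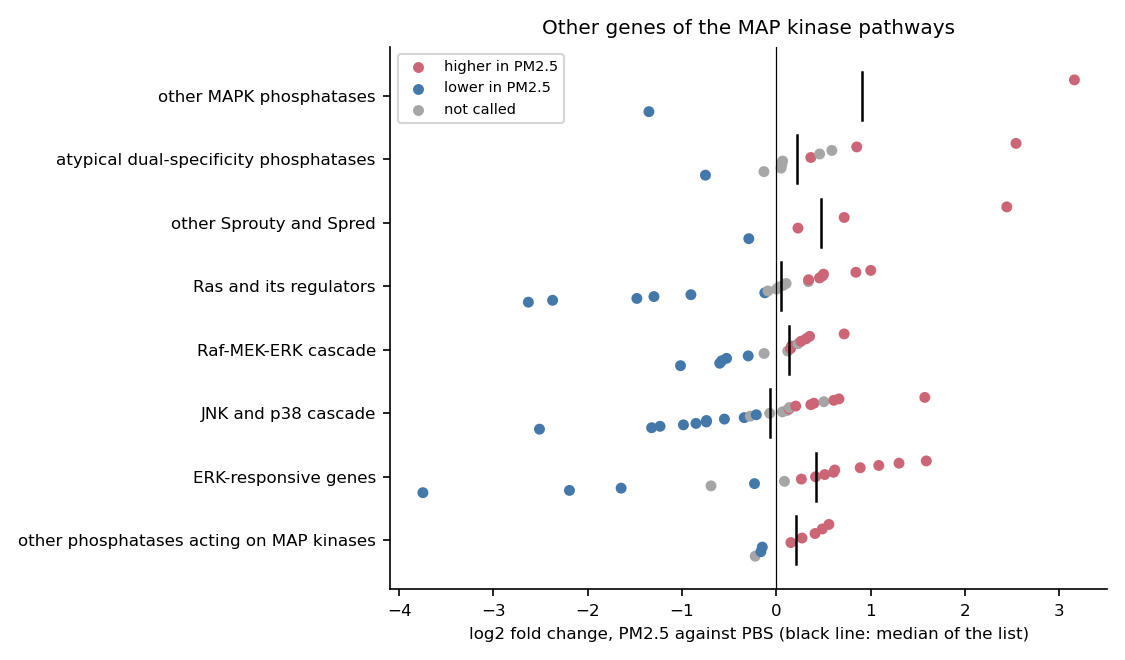
Log2 fold change, PM2.5 against PBS (x axis), of each tested gene of 8 lists of MAP kinase pathway genes (rows), coloured by the call, with the median of each list as a black line. Each list holds genes called higher and genes called lower, and Dusp8 (3.16), Dusp14 (2.54) and Spry4 (2.44) are the highest points of their rows.

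Of 15 genes that are known to answer to ERK, 9 rose and 4 fell (median log2 fold change 0.42), against 35.2% and 35.3% of all genes. With DESeq2, with library totals and without PBS replicate 2 the counts were 8 and 5. With limma on FPKM and with the replicate numbers as a block they were 9 and 5. Egr3 (-3.75, from 42.5 ± 1.82 to 3.16 ± 0.05 CPM, adjusted p = 3.19e-11) and Egr1 (-1.65, from 107 ± 3.90 to 34.2 ± 2.15 CPM, adjusted p = 1.31e-09), zinc finger factors induced within minutes of receptor ligation, fell. Fos (0.61), Myc (0.62) and the early response gene Ier3 (1.30) rose.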

How the data were processed

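The authors deposited raw counts per Ensembl gene and FPKM values for each library, per the file headers. Per the submitters' processing notes, reads were handled with TopHat2 2.0.6 and the build was mm10. How reads were counted, including strand and shared reads, is not given in the sources used here, so overlapping and antisense genes can share reads. The deposited FPKM equal the count over the library total and a fixed length per gene to within 0.000856% for 9540 genes. Genes were kept with filterByExpr of edgeR (minimum count 10, minimum total 15), which left 12967 of 34745 genes with 99.9% of the counts. The test was that of edgeR 4.0.16 in R 4.3.3 (TMM, robust glmQLFit, two-sided quasi-likelihood F test, Benjamini-Hochberg over all genes, threshold 0.05). The code was tested on simulated data. Each SE is the size of the log2 fold change divided by the root of F, and 95% intervals use the t quantile of the fit. A count of 0 allows up to 0.110 to 0.154 CPM in a library (3 counts, counting error only). Alternatives used DESeq2 1.42.0, limma 3.58.1 on log2 of FPKM plus 1 or 0.1, other scalings and filters, and fits without each library. The genes and lists were chosen with earlier results of these data known. Of the lists, the text names all genes of those with up to 5, otherwise the 4 with the smallest adjusted p, and Spry4, Egr1, Fos, Mapk3, Mapk8 and Mapk14. A gene that the rule names is not reported here. The ETS, NFAT, NF-kB and CArG motifs were added after the data were seen. Replicates of a group differed by a chi-square of 7.57 to 9.89 per degree of freedom, above counting error, and each was kept.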

Additional observations from a re-analysis of the deposited data

How the results depend on the processing

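Spry1, Dusp1, Dusp4, Dusp5, Dusp6 and Dusp16 kept their direction and their call in all 14 alternatives, with Spry1 between 2.46 and 2.81, Dusp5 between 1.18 and 1.41 and Dusp6 between -0.45 and -0.36 on the log2 scale. Dusp7 lost its call with DESeq2 (-0.17) and with the replicate block (-0.17), which left 1 gene of the 10 called lower in each, and ranged from -0.20 to -0.14 without single libraries, with 1 to 2 genes called lower. The cause was not tested. Dusp10, never called, turned to -0.027 with library totals, -0.028 with the filter at 5 CPM, and -0.018 and -0.017 with limma at a pseudocount of 0.1 and 1, and ran from -0.0468 to 0.12 without single libraries. Library totals shift all genes by a median of -0.064. Dusp2 ran from -0.0569 to 0.0196 and Spry2 from -0.27 to 0.00575 without single libraries. The replicate block changed no call among the 10 genes except that of Dusp7. No label says that a replicate number marks a shared animal, batch or day, so the numbers were not taken as pairs. Same-numbered libraries deviated together by correlations of 0.013, 0.007 and 0.045, and differently numbered ones by -0.037 to 0.023. With 3 libraries per group these correlations cannot decide whether the numbers mark pairs. The filter at 5 CPM leaves out Spry2, Dusp8, Dusp9 and Spry4. Depth limits Spry2, with 39 to 61 counts per library.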

Other observations

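Besides Mapk14, other genes of the pathway lists had libraries that stood apart from the others of their group, and those given here were chosen after the values were seen. Grb2, the adaptor that links receptors to Ras, read 121, 119 and 68.3 CPM in PM2.5 and 83.0, 83.1 and 77.5 CPM in PBS. Map3k7, the kinase TAK1, read 161, 287 and 276 CPM in PBS and 148, 224 and 226 CPM in PM2.5. Rps6ka3, an ERK-activated kinase, read 266, 175 and 148 CPM in PBS and 230, 231 and 231 CPM in PM2.5. Egr2, a zinc finger factor, read 49.2, 30.0 and 50.6 CPM in PBS and 25.7, 24.2 and 30.5 CPM in PM2.5. None of these passed the main edgeR test, and their results in the alternatives are not given here. Mapkapk5, a kinase activated by p38, read 25.5, 28.3 and 25.1 CPM in PBS and 32.8, 35.8 and 51.8 CPM in PM2.5, and was called higher (0.61 on the log2 scale, adjusted p = 0.0396). Without PM2.5 replicate 3 it stood at 0.39 (0.00151), and the call was lost without PBS replicate 1, 2 or 3 or PM2.5 replicate 2 (0.117, 0.0822, 0.128 and 0.0569), with library totals (0.0541), with the replicate block (0.0635) and with all low counts kept (0.0740), over a range of 7.26e-05 to 0.128.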
